A study of Rattus norvegicus with 5 samples.

Results

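The genes described here are the rat metallothioneins Mt1, Mt2A and Mt3, the metal-sensing transcription factor Mtf1, the zinc exporter Slc30a1 (ZnT1) and the zinc importer Slc39a14 (ZIP14). They were taken as every probe set whose platform annotation names exactly 1 symbol from the set Mt1, Mt1a, Mt2A, Mt3, Mtf1, Slc30a1 and Slc39a14, where Mt1a is an older symbol of Mt1. The rule gave 6 of the 14506 genes named on the array, measured by 8 of its 29215 probe sets, with a pair of probe sets each for Mt1 and Mt2A. A probe set with several symbols held 0 of the members. The RNA came from kidney proximal tubular cells, the epithelium of the first segment of the nephron, of Sprague-Dawley rats that the labels describe as having type I diabetes. The C-peptide group, given the connecting peptide cut out of proinsulin, had arrays of animals 1 to 3, and the untreated group had arrays of animals 1 and 2, with 2 h of incubation in the protocol. Whether an animal number means the same rat in both groups is not stated. All 5 arrays were from diabetic animals, so no comparison with non-diabetic cells was possible. The sources used here do not give the animals' age, how diabetes was induced or the C-peptide dose.

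Metallothioneins are small cysteine-rich proteins that bind zinc, copper and cadmium, and the proximal tubule is a main site of their expression in the kidney. Free zinc activates the transcription factor encoded by Mtf1, which binds metal response elements in the promoters of metallothionein genes and of Slc30a1, whose protein carries zinc out of the cell. Glucocorticoids, oxidants and inflammatory cytokines also induce metallothioneins. Metallothionein 3, encoded by Mt3, is best known from the brain.

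The promoters of the metallothionein genes and of Slc30a1 are shown with matches to the core of the metal response element, the sequence that MTF1 binds. In the current rat annotation Mt1, Mt2A, Mt3 and Mt4 lie in this order on chromosome 19 with no other annotated gene between them, while Mtf1 lies on chromosome 5, Slc30a1 on chromosome 13 and Slc39a14 on chromosome 15. Each sequence is the 250 bases before the annotated transcription start, 5′ to 3′ on the strand of the gene, from RefSeq on GRCr8. They are chr19:10832976-10833225 (minus strand) for Mt1, chr19:10838709-10838958 (minus strand) for Mt2A, chr19:10856081-10856330 (minus strand) for Mt3 and chr13:106021769-106022018 (plus strand) for Slc30a1. Capitals mark the core of the metal response element, searched as TGCACNC and TGCGCNC on both strands.
Mt1: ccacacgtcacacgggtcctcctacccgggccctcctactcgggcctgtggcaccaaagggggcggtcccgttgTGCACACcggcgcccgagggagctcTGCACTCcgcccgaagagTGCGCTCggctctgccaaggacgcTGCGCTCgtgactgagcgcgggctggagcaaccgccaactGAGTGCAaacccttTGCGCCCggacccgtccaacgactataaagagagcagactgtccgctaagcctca
Mt2A: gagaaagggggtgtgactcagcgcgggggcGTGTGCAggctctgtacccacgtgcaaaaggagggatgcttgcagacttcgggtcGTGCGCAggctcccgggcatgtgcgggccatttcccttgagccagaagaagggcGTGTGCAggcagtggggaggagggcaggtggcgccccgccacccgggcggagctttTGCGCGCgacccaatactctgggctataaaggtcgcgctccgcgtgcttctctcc
Mt3: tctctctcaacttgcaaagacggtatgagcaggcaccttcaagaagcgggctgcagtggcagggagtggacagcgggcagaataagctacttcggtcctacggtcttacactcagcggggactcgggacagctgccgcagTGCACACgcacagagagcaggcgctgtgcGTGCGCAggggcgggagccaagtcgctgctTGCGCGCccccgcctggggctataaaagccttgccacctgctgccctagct
Slc30a1: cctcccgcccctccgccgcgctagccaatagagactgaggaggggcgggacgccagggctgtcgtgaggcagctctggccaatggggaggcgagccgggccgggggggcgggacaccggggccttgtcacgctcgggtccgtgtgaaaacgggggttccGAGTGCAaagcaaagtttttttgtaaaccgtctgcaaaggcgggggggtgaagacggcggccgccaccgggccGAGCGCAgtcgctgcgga

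The Mt1 window held 6 matches to the metal response element core, that of Mt2A 4, that of Mt3 3, and those of Slc30a1 and Mtf1 2 each. In Mt1 the first match began at -176 and the last ended at -49, counted from the start. Of all 33469 promoter windows of the same length, 20.6% held at least 1 match, 4.9% at least 2, 1.17% at least 3, 0.266% at least 4 and 0.0269% at least 6. The searched windows of members were 62.8% to 69.2% G and C, and the motif is itself rich in these bases. No promoter sequence of Slc39a14 was available here, so that gene was not searched. A core of the antioxidant response element, TGACNNNGC on either strand, was searched after the promoters had been seen. Mt1, Mt2A and Slc30a1 held 1 match each, Mtf1 2 and Mt3 0, and 10.1% of all windows held at least 1. No metal response element match overlapped an antioxidant match in these windows. A match describes letters in the window and says nothing of whether a factor was bound in these cells.

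**Figure D1:**
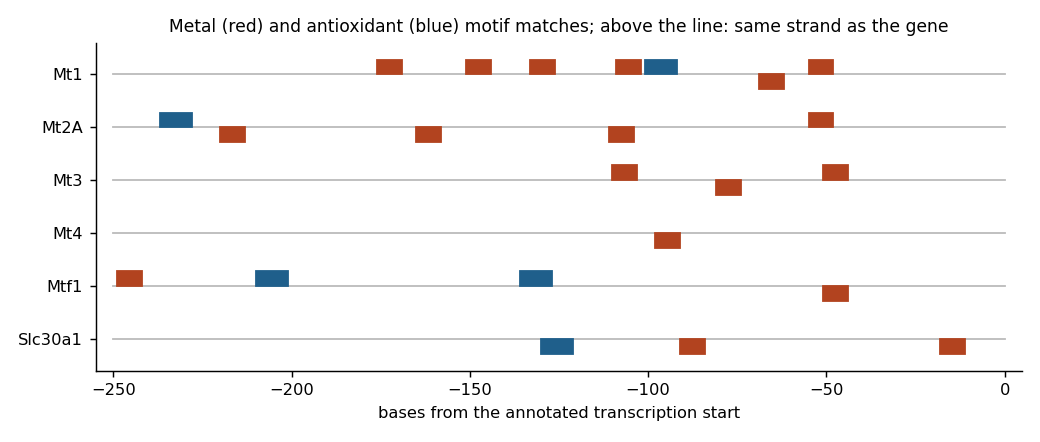
Matches to the metal response element core (red) and to the antioxidant response element core (blue) in the 250 bases before the annotated start of each gene, plotted by distance from the start in bases. Boxes above the line are on the strand of the gene and boxes below it on the opposite strand, and Mt1 has the 6 metal matches between -176 and -49.

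The deposited intensities had medians of 60.1 to 95.9 on the 5 arrays, the lowest on the array of C-peptide animal 1. Intensities below are therefore after quantile normalisation, which gave every array a median of 82.1. Differences are C-peptide minus untreated on the scale log2(intensity + 16), from limma fitted over all probe sets, and each adjusted p is limma's with Benjamini-Hochberg adjustment over all of them. The median difference of all probe sets was 0.02, and -0.13 in the values as deposited. In the normalised values 0 probe sets, 0.0% of those tested, passed adjusted p 0.05 in limma, and 3317 were at an unadjusted p under 0.05. No member passed. At an unadjusted p under 0.05, 5.06% of all probe sets were higher with C-peptide and 6.3% lower, and the groups were without overlap in 16.1% as higher and in 13.8% as lower.

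Both genes that encode the widely expressed metallothioneins, Mt1 and Mt2A, lay higher in the C-peptide-treated cells, by 1.34-fold to 1.53-fold over their 4 probe sets, in all of which each treated array lay above each untreated array. Slc39a14, which brings zinc, iron and manganese into the cell, differed by 1.48-fold. Mt3, Slc30a1 and Mtf1 differed less from 0, with intervals that included it. None of these differences passed adjusted p 0.05.

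The Mt1 probe set 10796411 had normalised intensities of 6404, 4356 and 5939 in C-peptide animals 1, 2 and 3, and of 3416 and 3798 in untreated animals 1 and 2. Its mean was 5566 ± 1074 (SD, n = 3) with C-peptide and 3607 ± 269.8 (SD, n = 2) without. Animals 1 and 3 stood well above the untreated pair, while C-peptide animal 2 lay close to untreated animal 2. The log2 difference was 0.61 ± 0.20 (SE; 95% interval 0.15 to 1.07; adjusted p = 0.326). A further Mt1 probe set, 10809392, is annotated to the same transcripts and gave 5298.7, 3612 and 4653.5 with C-peptide and 2747.5 and 3101.5 without. It showed the same order of arrays, with a log2 difference of 0.61 ± 0.19 (SE; adjusted p = 0.314). The log2 values of these probe sets, centred on their means, differed by a root mean square of 0.03 over the 5 arrays.

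For Mt2A, the second of the pair, the probe set 10809399 stood at 5266, 3457.5 and 4171 in C-peptide animals 1, 2 and 3 and at 3243 and 3052 in untreated animals 1 and 2. The groups did not overlap, but the lowest treated array was nearer to the untreated arrays than to the highest treated one. The mean was 4298 ± 911 (SD, n = 3) against 3147 ± 135 (SD, n = 2). This gave a log2 difference of 0.43 ± 0.20 (SE; 95% interval -0.03 to 0.89; adjusted p = 0.467). The dimmer Mt2A probe set, 10827989, had 3373, 1990.1 and 2216 with C-peptide and 1658.5 and 1616 without. Here C-peptide animal 1 stood apart from the other treated arrays. The log2 difference was 0.58 ± 0.23 (SE; 95% interval 0.04 to 1.13; adjusted p = 0.415). Centred values of this probe set and of 10809399 differed by a root mean square of 0.12, and those of 10796411 for Mt1 and 10809399 for Mt2A by 0.14.

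C-peptide animal 1 had the highest value in each of the 4 probe sets of Mt1 and Mt2A, and its array had the lowest deposited median. Without that array the differences of the probe sets were 0.49 and 0.48 for Mt1 and 0.27 and 0.35 for Mt2A. Without C-peptide animal 2 they were 0.77, 0.77, 0.57 and 0.73. Metallothionein genes have near-identical copies, and the probe sequences are not used here, so signal from one copy and another cannot be told apart. The probe sets of a gene are annotated to the same transcripts and are not replicates. Whether they read the same copy is not known here.

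Mt3, whose protein was first found as a neuronal growth inhibitory factor, had intensities of 88.2, 87.9 and 84.3 with C-peptide and 73.5 and 70.4 without. The arrays of each group lay close together and the groups did not overlap after normalisation. The log2 difference was 0.23 ± 0.13 (SE; 95% interval -0.09 to 0.54; adjusted p = 0.573). As deposited, the Mt3 values of 64.2, 102.3 and 79.7 with C-peptide overlapped those of 82.4 and 72.0 without, and the difference was 0.06. The mean of this probe set lay below that of the median probe set, and the table holds no detection calls, so whether Mt3 was expressed cannot be told.

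**Figure D2:**
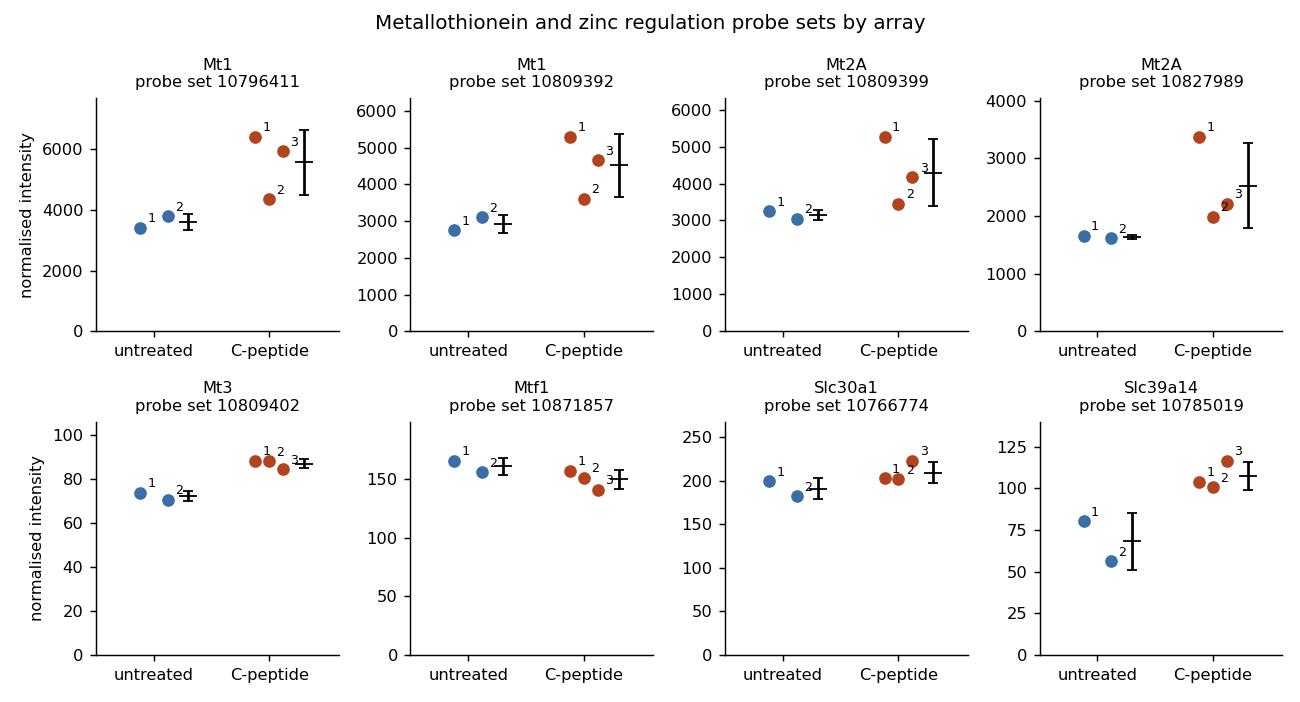
Normalised intensity (linear axis from 0) of each of the 8 probe sets, with untreated arrays in blue and C-peptide arrays in red, numbered by animal. Black marks are the group mean and SD (n = 2 and n = 3). The 4 probe sets of Mt1 and Mt2A show C-peptide animal 1 highest, and Mtf1 is the probe set in which the groups overlap.

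Among Slc39a14, Slc30a1 and Mtf1, the genes that move and sense zinc, the importer Slc39a14 had the difference farthest from 0. Its probe set stood at 104.0, 100.8 and 116.7 in C-peptide animals 1, 2 and 3 and at 80.3 and 56.2 in untreated animals 1 and 2. The treated arrays lay close together and above both untreated arrays, which were themselves far apart. The means were 107 ± 8.42 (SD, n = 3) and 68.25 ± 17.0 (SD, n = 2), with a log2 difference of 0.56 ± 0.17 (SE; 95% interval 0.16 to 0.96; adjusted p = 0.297). Its values in the untreated cells lay below the array median of 82.1, and with no detection calls in the table it cannot be told whether it was above background there. Untreated animal 2 weighed on the difference, which was 0.35 without it and 0.76 without untreated animal 1. As deposited the groups overlapped, since C-peptide animal 1 was at 74.8 and untreated animal 1 at 89.8, and the difference was 0.39, or 0.52 relative to the median of all probe sets.

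Slc30a1, the exporter at the plasma membrane and a target of MTF1, had 203.1, 201.9 and 223.4 with C-peptide and 199.5 and 182.2 without. The groups were separate by the small gap between C-peptide animal 2 and untreated animal 1. The log2 difference was 0.12 ± 0.14 (SE; 95% interval -0.20 to 0.45; adjusted p = 0.785), and 0.06 without untreated animal 2. In the values as deposited it was -0.10, or 0.04 relative to the median of all probe sets. Mtf1, the sensor itself, was at 157.2, 151.1 and 141.0 with C-peptide and at 165.8 and 155.9 without. These groups overlapped, at a log2 difference of -0.09 ± 0.14 (SE; 95% interval -0.42 to 0.23; adjusted p = 0.841). The intervals leave room for a change of either sign in Slc30a1 and Mtf1.

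Counted together, 7 of the 8 probe sets had all treated arrays above all untreated arrays, and 0 the reverse, where 16.1% and 13.8% of all probe sets did. At an unadjusted p under 0.05, 4 of the 8 were higher and 0 lower. These 4 were both Mt1 probe sets, the Mt2A probe set 10827989 and Slc39a14. In the values as deposited 0 of the 8 passed adjusted p 0.05, where 0.178% of all probe sets did, and 4 of 8 were without overlap, all of Mt1 and Mt2A, where 3.97% of all probe sets lay higher without overlap. Represented by the brightest probe set of each, the 6 genes had a median difference of 0.33, with 5 above 0 and Mtf1 below, beside the median of 0.02 over all probe sets. Because the probe sets of Mt1 and of Mt2A repeat their genes, these counts are not counts of independent members. The members were also chosen with earlier results of these data known, so the counts only describe the list.

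**Figure D3:**
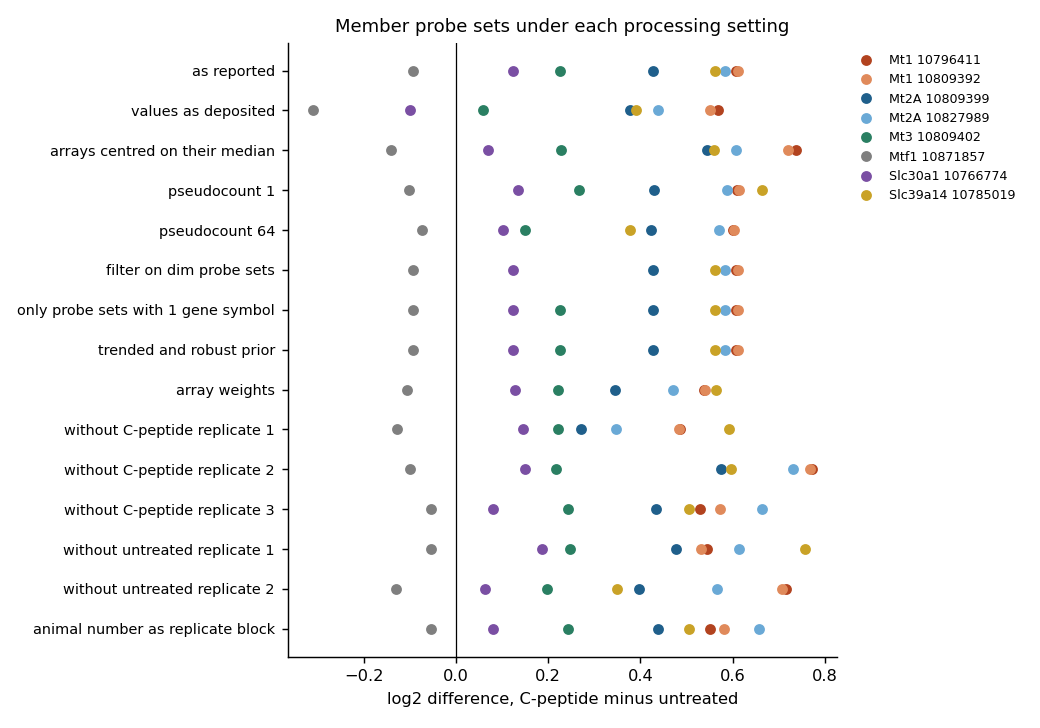
Log2 difference (C-peptide minus untreated) of each of the 8 probe sets under the reported setting and each alternative; each point is a fitted value. The 4 probe sets of Mt1 and Mt2A and that of Slc39a14 stay right of 0 and Mtf1 stays left of it, while Slc30a1 is at -0.10 in the values as deposited.

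Most genes of the wider zinc transporter families had small differences above 0, and none passed adjusted p 0.05. Among the 10 ZnT (Slc30) genes, a family that mainly carries zinc out of the cytosol, 9 had differences above 0. Without overlap, 4 were higher and 1 lower, where 16.1% and 13.8% of all probe sets were. At an unadjusted p under 0.05 in limma, 2 were higher and 0 lower, where 5.06% and 6.3% of all probe sets were. The median difference of the 10 genes was 0.14, where that of all probe sets was 0.02. Slc30a8, the zinc transporter of insulin granules in beta cells, stood at 52.3, 47.4 and 55.2 with C-peptide and at 35.2 and 38.2 without, a log2 difference of 0.36 ± 0.14 (SE; adjusted p = 0.404). Slc30a6, of the Golgi, differed by 0.38 ± 0.16 (SE; adjusted p = 0.439), and by 0.23 without untreated animal 1. Slc30a4, a transporter of endosomal vesicles, lay the other way, with 495.2, 467.6 and 463.9 against 597.1 and 552.5. Its log2 difference was -0.27 ± 0.14 (SE; adjusted p = 0.515). Slc30a2, named after its values were seen because zinc induces it in rat tissues, was at 0.40 ± 0.23 (SE; adjusted p = 0.573) with groups that overlapped, and at 0.24 and 0.62 without C-peptide animals 3 and 2.

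The ZIP (Slc39) genes, whose proteins bring zinc into the cytosol, numbered 14 and include Slc39a14. Of these, 11 had differences above 0. Without overlap, 5 were higher and 1 lower, where 16.1% and 13.8% of all probe sets were. Slc39a14 alone was higher at an unadjusted p under 0.05 in limma, with 0 lower, where 5.06% and 6.3% of all probe sets were. The median difference was 0.145, and 0.09 and 0.25 without C-peptide animal 1 and untreated animal 1. Slc39a11 was at 0.31 ± 0.14 (SE; adjusted p = 0.475), Slc39a4, the importer of intestinal zinc uptake, at 0.29 ± 0.16 (SE; adjusted p = 0.535) and Slc39a12 at 0.44 ± 0.24 (SE; adjusted p = 0.539). Without untreated animal 2 Slc39a4 was at 0.14 and Slc39a12 at 0.11, and without untreated animal 1 Slc39a12 was at 0.76. Slc30a8, Slc39a4 and Slc39a12 lay below the median probe set, with no detection call. Slc39a1, a broadly expressed importer, was at 0.06 ± 0.16 (SE; adjusted p = 0.922). Slc39a10, named after its values were seen because MTF1 represses it in the mouse, was at -0.16 ± 0.15 (SE; adjusted p = 0.743), and at -0.07 without C-peptide animal 1. In the values as deposited 3 of the 10 ZnT and 6 of the 14 ZIP genes were above 0, with medians of -0.06 and -0.08, or 0.07 and 0.06 relative to all probe sets.

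**Figure D4:**
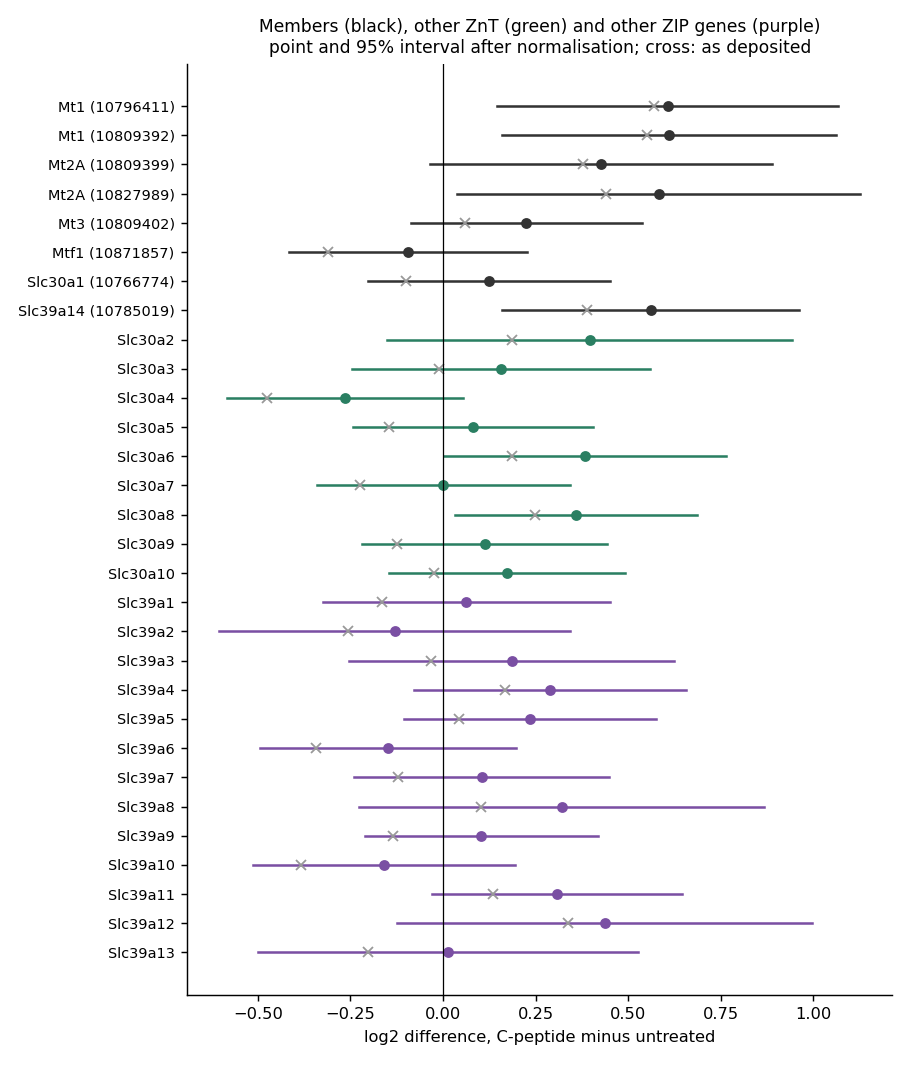
Log2 difference, C-peptide minus untreated, with its 95% interval from limma, for the 8 member probe sets (black), the other ZnT genes (green) and the other ZIP genes (purple). Grey crosses are the differences in the values as deposited. The intervals of Mt1, of the Mt2A probe set 10827989 and of Slc39a14 lie above 0, as do those of Slc30a6 and Slc30a8, and those of the other genes shown include 0.

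Genes that respond to oxidants, glucocorticoids or heat shock were set beside the metallothioneins. The 10 oxidant-responsive NRF2 targets had a median difference of 0.56, with 6 higher and 0 lower at an unadjusted p under 0.05 and 0 past adjusted p 0.05. Of all probe sets, 5.06% were higher and 6.3% lower at that unadjusted p in limma. Hmox1, heme oxygenase, was at 1.45 ± 0.19 (SE; adjusted p = 0.0966) and Me1, malic enzyme, at 0.73 ± 0.14 (SE; adjusted p = 0.138). Hmox1 passed under 5 of the 14 alternatives, at adjusted p of 0.0118 at the lowest, and Me1 under 2. The median of the 12 glucocorticoid receptor targets was -0.30, with 1 higher and 3 lower at that unadjusted p. Zbtb16 stood at -2.04 ± 0.48 (SE; adjusted p = 0.190), while Errfi1 was at 0.79 ± 0.21 (SE; adjusted p = 0.223). Zbtb16 passed under 3 alternatives, among them the values as deposited (adjusted p = 0.0145). The list's median was -0.21 and -0.20 without C-peptide animal 2 and untreated animal 1 and -0.51 as deposited. Of the 10 heat shock genes listed, Hspa1a and Hspa1b were not measured by a probe set of 1 symbol. The other 8 lay at -0.22 in the median, moving to -0.07 when untreated animal 1 was left out and to -0.41 as deposited. Hspb1 was at -1.35 ± 0.32 (SE; adjusted p = 0.192) and Hsp90aa1 at -0.36 ± 0.19 (SE; adjusted p = 0.522). Hspb1 passed under 2 alternatives. No pattern of the metallothioneins was tested against any of these lists.

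In median difference and summed intensity, markers of proximal tubule, endothelial and immune cells differed between the groups on these arrays. In limma as reported, 0 of these markers passed adjusted p 0.05. Without overlap, 10 proximal tubule markers were higher and 0 lower. By the same rule 10 endothelial and 9 immune markers were lower and 0 higher, where 16.1% of all probe sets were higher and 13.8% lower. In bulk samples, fewer cells of a type and less RNA per cell cannot be told apart. All 14 proximal tubule markers were measured and had differences above 0, with a median of 0.56, and their summed intensity was 31668 to 39894 with C-peptide and 23254 to 26746 without. Lrp2, the endocytic receptor megalin, was at 0.80 ± 0.20 (SE; adjusted p = 0.209) and Aqp1, the water channel, at 0.56 ± 0.15 (SE; adjusted p = 0.241). The 11 endothelial markers all lay above the median probe set in their mean over the arrays, though without a detection call. All had differences below 0, with a median of -1.17 and a summed intensity of 8655 to 13615 with C-peptide against 20920 to 24626 without. Pecam1 was at -1.14 ± 0.22 (SE; adjusted p = 0.138) and passed under 3 alternatives. The 13 immune markers had a median of -0.46, 0 of them above 0, with sums of 6253 to 8400 against 9262 to 10344. In these marker lists 0 genes were listed at an intensity of 0. The part of cell makeup in the metallothionein and Slc39a14 differences was not tested.

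The patterns most like the members over the 5 arrays were sought among 8574 other genes brighter than the median probe set, by the root mean square difference of log2 values centred per gene, as a description. Slc39a14 counted as brighter by its mean over all arrays, which its treated arrays raised. Nearest to Mt1 were Abcg2, an efflux transporter (0.03), Khk, ketohexokinase (0.04), and Akr1e2, an aldo-keto reductase (0.05). Nearest to Mt2A were Spag8 (0.02), Phgdh, the first enzyme of serine synthesis (0.04), and Fcgrt, the neonatal Fc receptor (0.04). Lpgat1l1 (0.02), Hsd11b2, which inactivates glucocorticoids (0.05), and Unc5cl (0.05) were nearest to Slc39a14. Stau1, Ahcyl1 and Rb1cc1 were nearest to Slc30a1 at 0.02 each, and Lsm4, Dad1 and Dnmt3a to Mtf1 at 0.03 each. With 5 arrays and so many genes, close matches are easily found.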

How the data were processed

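Total RNA of proximal tubular cells was hybridised to whole-transcript arrays, 5 in all, with an animal number on each array within its group, per the labels. The deposited values are linear probe-set intensities that the authors summarised by the PLIER method (Affymetrix Expression Console 1.1), as the submitters' processing notes record. The sources used here do not give their background correction or scaling. The values include 550 exact zeros. Because array medians differed, the deposited intensities were quantile normalised (limma 3.58.1, R 4.3.3), 16 was added and log2 was taken, which understates folds of dim probe sets. The test was limma's lmFit with eBayes, two-sided, group as the only term, with Benjamini-Hochberg adjustment over 29215 probe sets. The script was tested on simulated arrays.

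The platform annotation gave 15310 probe sets 1 symbol, 323 several and 13582 none; 15279 were found in the RefSeq gene table (GRCr8). The brightest probe set stood for each of 14506 genes. The sources used here do not give the build of the array's design, so only promoter coordinates are printed. The labels number an animal per array without saying whether equal numbers are the same animal. Arrays were therefore not paired. Deviations of equally numbered arrays correlated at -0.02 and 0.01. With 2 untreated arrays the deviations of that group mirror each other, so these values cannot show whether equal numbers are the same animal. No batch is labelled, and the number of arrays limits precision.

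Members and gene lists were chosen with earlier results of these data known. Named are every member, in each zinc or copper list the 3 genes of smallest p and the brightest, in each inducer list the 2 of smallest p, the markers Lrp2, Aqp1 and Pecam1, and the 3 nearest patterns for each member brighter than the median probe set. The text says where another gene was picked with its values in view. Results of the proximal tubule, endothelial and immune marker lists are given in the report, and those of the other marker lists in the closing section. Not every gene of these lists is named. Alternatives were other scalings, pseudocounts, filters, variance priors, array weights, each array left out and the animal number as a block.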

Additional observations from a re-analysis of the deposited data

How the results depend on the processing

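No member passed adjusted p 0.05 under any of the 14 alternatives in limma. The probe sets of Mt1, Mt2A and Slc39a14 kept a difference above 0 and Mtf1 one below 0 under all 14, and Mt3 stayed above 0 in the 13 that tested it. The median difference of the member genes was 0.33 as reported and 0.22 in the values as deposited. It ran from 0.25 to 0.40 with each array left out. With dim probe sets filtered out, which leaves Mt3 out, it was 0.43. That filter keeps Slc39a14 by its mean over all arrays, which its treated arrays raised. Slc30a1 turned to -0.10 in the values as deposited, where Slc39a1 was at -0.17 and Sod1 at -0.028, with all probe sets shifted to a median of -0.13. Slc39a1 ran from -0.092 to 0.217 with arrays left out. Over all probe sets, the count past adjusted p 0.05 was 0 as reported and 52 in the values as deposited, 29 with arrays centred on their median, 1 and 118 at pseudocounts of 1 and 64, 396 with dim probe sets filtered out, 329 with only probe sets of 1 symbol and 207 with a trended and robust prior. Fewer probe sets were tested under the filter and with 1 symbol, and the cause of the other shifts was not tested. Of the named genes that are no members, Hmox1, Zbtb16, Me1, Hspb1 and Pecam1 passed when dim probe sets were filtered out (adjusted p = 0.0130, 0.0432, 0.0298, 0.0461 and 0.0263) and with 1 symbol (0.0118, 0.0372, 0.0341, 0.0429 and 0.0249). Hmox1 also passed with centred arrays (0.0496), at a pseudocount of 64 (0.0404) and with the trended prior (0.0233), Pecam1 with that prior (0.0422) and Zbtb16 as deposited (0.0145). The count over all probe sets was 0 with array weights and with each array left out. Leaving out an untreated array leaves 1, whose spread is assumed to be that of the treated group. With the animal number as a replicate block the count was 0, no call changed, and the median difference of the member genes was 0.34. That fit leaves few residual degrees of freedom, and C-peptide animal 3 has no untreated array of its number. Its count therefore cannot show whether pairing matters. The numbers are not stated to mark the same animal. With 3 arrays against 2 the intervals are wide, and no probe set has a detection call here, dim ones such as Mt3, Slc39a14 in untreated cells, Slc30a8, Slc39a4 and Slc39a12 included.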

Other observations

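Copper also binds metallothioneins, and its transporters and chaperones were measured as 10 genes. Of these, 0 passed adjusted p 0.05 in limma. At an unadjusted p under 0.05 there were 0, where 5.06% of all probe sets were higher and 6.3% lower. The median difference of the 10 genes was 0.14, with 8 above 0, and 0.09 without untreated animal 2. In the values as deposited 3 were above 0 and the median was -0.06. Atp7b, a copper-exporting ATPase, had normalised intensities of 100.7, 95.4 and 139.8 with C-peptide and 88.9 and 78.4 without, so that C-peptide animal 3 stood apart, at a log2 difference of 0.35 ± 0.19 (SE; adjusted p = 0.531 in limma) and 0.20 without that array. Cox17, a mitochondrial copper chaperone, was at 772.5, 767.4 and 745.4 against 624.7 and 696.2, a difference of 0.20 ± 0.14 (SE; adjusted p = 0.630 in limma). Ccs, which loads copper into superoxide dismutase, was at 0.22 ± 0.16 (SE), and Sod1, that enzyme, at 0.14 ± 0.14 (SE), and both had groups that overlapped.

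Mt4, a metallothionein known from stratified epithelium and the next gene after Mt3 on the chromosome, was looked at after its values were seen. Its probe set stood at 41.6, 37.8 and 40.1 with C-peptide and at 44.3 and 42.3 without, and the log2 difference was -0.09 ± 0.13 (SE; adjusted p = 0.851 in limma). Each treated array thus lay below each untreated array after normalisation, as in 13.8% of all probe sets, and the groups overlapped as deposited. Mt4 lay below the median probe set, with no detection call. The 250 bases before its start held 1 metal response element match.

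Markers of further cell types had median differences of -0.65 for podocytes over 5 genes, 0.13 for the thick limb and distal tubule over 7, 0.20 for the collecting duct over 8 and -0.30 for stroma and smooth muscle over 7. Single arrays moved these medians, to -0.33 for podocytes without untreated animal 1, to 0.41, 0.00 and 0.02 for the thick limb and distal tubule without C-peptide animals 1, 2 and 3, to 0.13 and 0.06 for the collecting duct without C-peptide animal 3 and untreated animal 2, and to -0.08 for stroma and smooth muscle without C-peptide animal 1. In the values as deposited those of the thick limb and distal tubule and of the collecting duct were -0.05 and -0.04, and that of stroma and smooth muscle -0.51. Their summed intensities with C-peptide and without were 1460 to 2454 and 3799 to 4626 for podocytes, 8368 to 14580 and 9840 to 10970 for the thick limb and distal tubule, 2487 to 3994 and 2714 to 3353 for the collecting duct, and 4600 to 4855 and 4862 to 5468 for stroma and smooth muscle.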
